A study of Rattus norvegicus with 64 samples.

Results

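The vitamin A (retinoid) genes described here were 9 genes of retinol transport, retinoic acid synthesis and retinoic acid signalling, namely Rdh10, Aldh1a1, Aldh1a2, Aldh1a3, Rbp4, Stra6, Crabp2, Rara and Rarb. They were chosen by name, and each was represented by 1 probe, so that 9 of the 30367 gene probes and 9 of the 15715 named genes on the array are the subject. RNA came from the bladder wall of male Wistar rats that had undergone hemicystectomy and augmentation with bladder acellular matrix (BAM), a bladder stripped of its cells. In the BAM+ASCs groups the matrix had been seeded with adipose derived stem cells (ADSCs in the sample labels, ASCs here) grown to the third passage from retroperitoneal fat of male donors of the same strain, whereas in the BAM groups it carried no cells. Walls were taken at 7, 30, 90 or 180 days, which gave 8 groups of 8 rats with 1 array per rat. All groups shared the surgery and the matrix, no unoperated bladder was analysed here, and the age of the recipients was not given in the sources used here.

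Vitamin A travels in blood as retinol bound to retinol binding protein (Rbp4) and can enter cells through the receptor Stra6. Retinol is oxidised to retinal by retinol dehydrogenases such as Rdh10, and retinal is oxidised irreversibly to retinoic acid by the retinaldehyde dehydrogenases Aldh1a1, Aldh1a2 and Aldh1a3. Crabp2 carries retinoic acid to the nuclear receptors of the Rar family, which bind DNA together with Rxr partners and switch target genes on or off. In the bladder, vitamin A is needed to maintain the urothelium, which becomes squamous and keratinised when the vitamin is lacking.

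Levels are given on the log2 scale relative to the 75th percentile of the gene spots of the same array, which is thus at 0, and levels of different genes are not compared. Each group of 8 arrays occupied 1 slide, so slide and group cannot be told apart, and the 7 and 30 day arrays were scanned on another day than the 90 and 180 day arrays. The share of gene spots well above background was 73.3 to 95.6% on the 7 and 30 day arrays and 35.5 to 64.6% on the 90 and 180 day arrays. For that reason days were tested against each other only within a pair scanned together. Aldh1a1, Rbp4, Crabp2 and Rara were well above background on all 64 arrays, Aldh1a2 on 63, Rarb on 49, Rdh10 on 41, Stra6 on 40 and Aldh1a3 on 37. All 9 genes were well above background on every array of 7 and 30 days, so the missing detections fell on the late arrays. The arrays that agreed least with their own group were BAM+ASCs replicate 1 at 30 days, BAM replicate 8 at 90 days and BAM replicate 7 at 7 days.

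A gene was called when its Benjamini-Hochberg adjusted p over all gene probes was below 0.01 and its fold change above 1.5. Between BAM+ASCs and BAM at 7 days, 4 of the 9 genes were called, against 7.71% of all gene probes. Aldh1a1, Aldh1a2 and Crabp2 were higher in BAM+ASCs, as were 2.11% of all probes, and Rara was lower, as were 5.6%. At 30 days none of the 9 was called, against 1.67% of all probes, and 2 of them (Crabp2 and Aldh1a3) had an unadjusted limma p below 0.01 with a fold above 1.5. At 90 days 1 of 9 was called (Stra6, lower in BAM+ASCs), against 12.4% of all probes, 8.57% being lower. At 180 days none was called, against 2.42% of all probes, and 1 (Stra6) had an unadjusted limma p below 0.01. For the 9 genes the median log2 differences of 7, 30, 90 and 180 days were 0.43, 0.15, -0.14 and 0.31, beside -0.16, 0.11, -0.27 and 0.06 over all gene probes. An exact permutation test of the difference of means used only the 16 arrays of a day, and was adjusted over 36 tests. Its adjusted p at 7 days was 0.0653 for Aldh1a1, 0.0797 for Aldh1a2, 0.0376 for Crabp2 and 0.0224 for Rara, all above 0.01. For Stra6 at 90 days this adjusted permutation p was 0.00559.

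**Figure D1:**
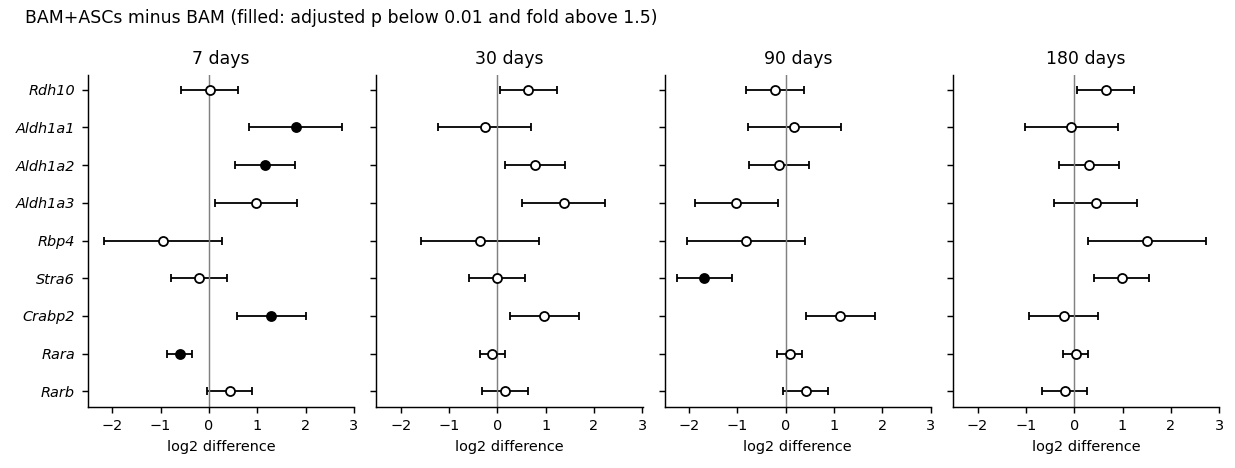
Log2 difference BAM+ASCs minus BAM (horizontal axis) for each of the 9 retinoid genes at each day, with 95% intervals from the limma fit over 64 arrays, filled points being the genes called. Aldh1a1, Aldh1a2, Crabp2 and Rara are filled at 7 days and Stra6 at 90 days, and no point is filled at 30 or 180 days.

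**Figure D2:**
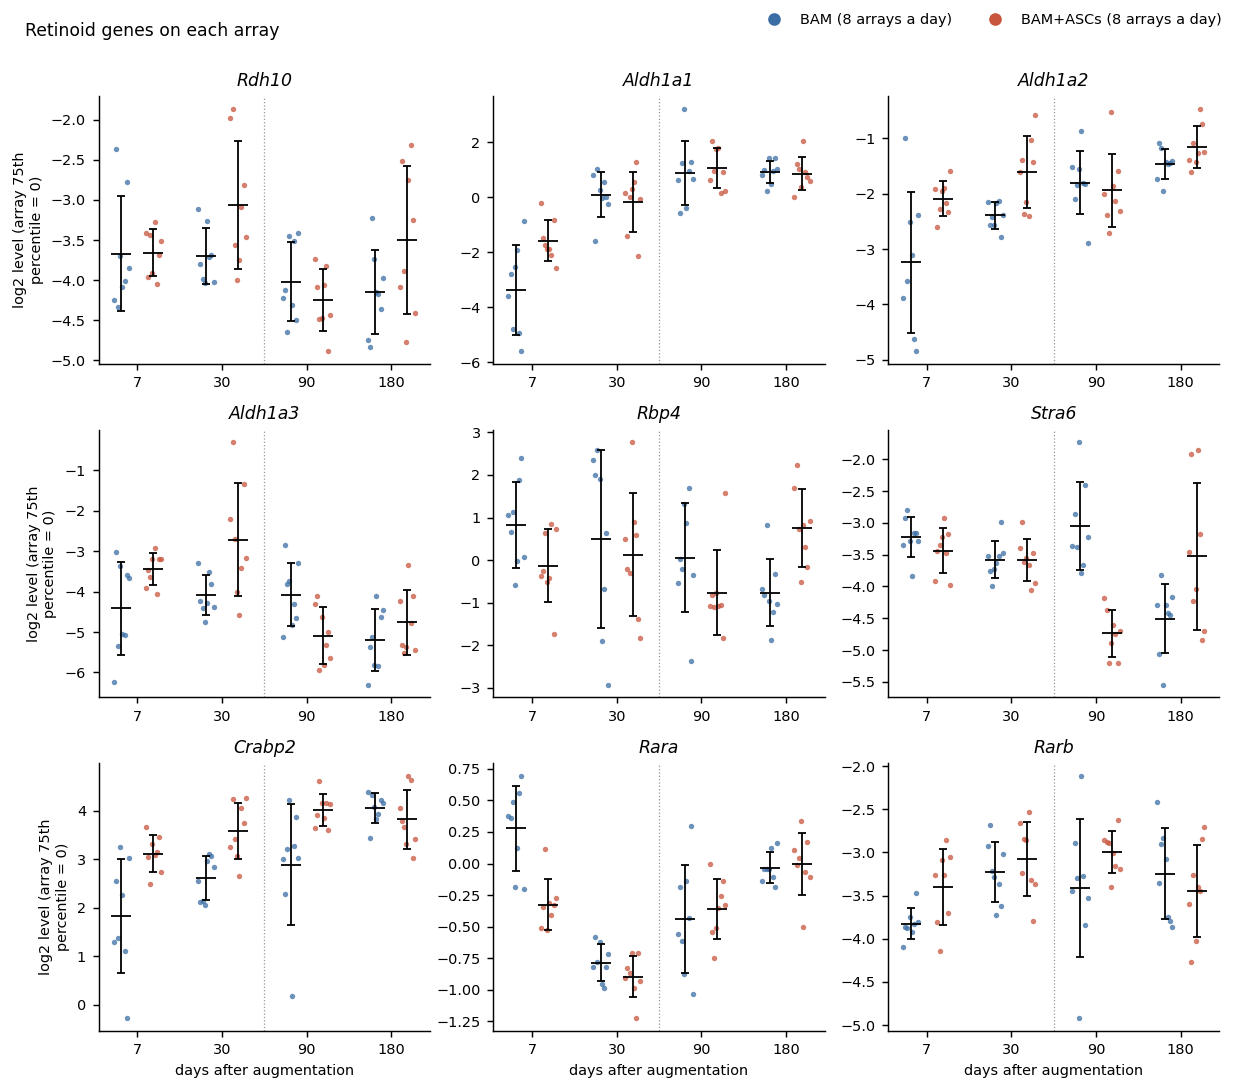
Log2 level relative to the 75th percentile of the array (vertical axis) of the 9 genes on all 64 arrays, by day and graft, with the mean and SD of 8 arrays in black and a dotted line between the 2 scanning days. Aldh1a1 in BAM lies lowest at 7 days (mean -3.37), and the 8 Stra6 values of BAM+ASCs at 90 days all lie below the 8 of BAM.

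Rdh10, the retinol dehydrogenase of the first oxidation step, differed little between the grafts at 7 days. Its level ran from -4.33 to -2.37 with a median of -3.93 in BAM and from -4.05 to -3.28 with a median of -3.60 in BAM+ASCs, and the groups overlapped. The difference of means was 0.02 (95% interval -0.57 to 0.61, adjusted p = 0.976). The interval allows a change of up to about 1.5-fold either way. At 30 and 180 days Rdh10 was 0.64 (adjusted p = 0.161) and 0.65 (adjusted p = 0.277) higher on the log2 scale in BAM+ASCs, without passing the test, and at 180 days it was well above background on 5 of 8 BAM+ASCs arrays and 2 of 8 BAM arrays.

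Aldh1a1, a retinaldehyde dehydrogenase, showed the largest of the differences between the grafts at 7 days among the 9 genes. In BAM at 7 days its level ran from -5.60 to -0.84 with a median of -3.19, and in BAM+ASCs from -2.58 to -0.21 with a median of -1.79. The groups overlapped, the BAM arrays spreading much more widely (SD 1.65 against 0.75), and 2 of 8 BAM+ASCs arrays lay above every BAM array. The mean was 3.47-fold higher in BAM+ASCs (log2 1.80 ± 0.48, SE, adjusted p = 0.00512). The call was lost, with the sign kept, when BAM+ASCs replicate 1 or 7 or BAM replicate 3, 6 or 7 was left out (adjusted p up to 0.0281). With background corrected by normexp the difference was 1.07 and was not called.

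From 7 to 30 days Aldh1a1 rose in BAM. Its level at 30 days ran from -1.60 to 1.05 with a median of 0.14, and 7 of 8 arrays lay above every BAM array of 7 days. The rise was 11.1-fold (log2 3.47 ± 0.48, adjusted p = 1.09e-07), and it was called without any 1 array and under each of the 12 alternative settings, with a smaller log2 rise of 2.61 under normexp. This comparison called 2 of the 9 genes, against 8.63% of all gene probes, and it shares the BAM arrays of 7 days with the comparison of grafts. In BAM+ASCs the level at 30 days ran from -2.12 to 1.28 with a median of 0.10, and the difference from 7 days was 1.42 (adjusted p = 0.0232, not called). None of the 9 genes was called in BAM+ASCs between 7 and 30 days, against 8.04% of all gene probes, and 1 (Aldh1a1) had an unadjusted limma p below 0.01 with a fold above 1.5. At 90 and 180 days the 4 group medians of Aldh1a1 lay between 0.82 and 0.98 and the grafts differed by 0.18 (95% interval -0.78 to 1.14) and -0.06 (95% interval -1.02 to 0.90).

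Aldh1a2, the retinaldehyde dehydrogenase best known from mesenchymal and mesothelial cells, was 2.22-fold higher in BAM+ASCs at 7 days (log2 1.15 ± 0.31, adjusted p = 0.0058). Its level ran from -4.85 to -1.001 with a median of -3.34 in BAM and from -2.60 to -1.59 with a median of -2.06 in BAM+ASCs. The range of BAM enclosed that of BAM+ASCs, since 1 BAM array (replicate 2) held the highest of the 16 values. The call was kept in 8 of the 16 fits that left out 1 array and lost in the other 8 (without BAM+ASCs replicate 1, 4, 5 or 8 or BAM replicate 1, 3, 6 or 7), with an adjusted p of up to 0.0333. At 30 days the difference was 0.78 (adjusted p = 0.105), with 5 of 8 BAM+ASCs arrays above every BAM array, and at 90 and 180 days it was -0.14 (adjusted p = 0.74) and 0.31 (adjusted p = 0.826).

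Aldh1a3, the third enzyme of this step, was the dimmest of them relative to background. At 7 days its level ran from -6.23 to -3.01 with a median of -4.36 in BAM and from -4.06 to -2.92 with a median of -3.32 in BAM+ASCs (difference 0.97, adjusted p = 0.111). At 30 days it ran from -4.76 to -3.30 with a median of -4.25 in BAM and from -4.57 to -0.30 with a median of -2.94 in BAM+ASCs. There 5 of 8 BAM+ASCs arrays lay above every BAM array, and the difference of 1.37 (2.58-fold) did not pass the threshold (adjusted p = 0.0354). At 90 days the sign was the opposite, with a difference of -1.02 (adjusted p = 0.0555), but the probe was well above background on only 1 BAM+ASCs and 2 BAM arrays. The test of whether the graft difference changed with the day passed for Aldh1a3 (adjusted p = 0.00758). That test passed for 3 of the 9 genes (Stra6, Aldh1a3 and Rara), against 18.5% of all gene probes.

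Rbp4, the carrier of retinol in blood, is made in liver and also in adipocytes. It was called in none of the 8 comparisons. At 30 days its level ran from -2.93 to 2.59 with a median of 1.27 in BAM and from -1.84 to 2.78 with a median of 0.14 in BAM+ASCs, a range of over 4 log2 units within each group. At 180 days it ran from -1.87 to 0.83 with a median of -0.90 in BAM and from -0.53 to 2.22 with a median of 0.78 in BAM+ASCs, and 3 of 8 BAM+ASCs arrays lay above every BAM array. The mean was 1.51 higher there (2.85-fold, 95% interval 0.29 to 2.73), without passing the test across all probes (adjusted p = 0.181). At 7, 30 and 90 days the differences were -0.96, -0.37 and -0.82 (adjusted p = 0.309, 0.744 and 0.272), with a median lower in BAM+ASCs on each of these days.

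The level of Rbp4 went with the adipocyte markers from array to array. The mean log2 level of 9 adipocyte markers at 180 days ran from -1.88 to -0.41 in BAM and from -0.81 to 0.32 in BAM+ASCs. None of these 9 markers was called at that day, against 2.42% of all gene probes. The median log2 difference of the 9 markers was 0.38, beside 0.06 over all gene probes. Among them the adipocyte hormone Adipoq was 3.66 higher on the log2 scale in BAM+ASCs (adjusted p = 0.0193), being well above background on 8 of 8 BAM+ASCs arrays and 3 of 8 BAM arrays. With group means removed, the Pearson r between Rbp4 and the adipocyte mean over the 64 arrays was 0.891, given as a description. The part of the adipocyte markers in the Rbp4 values was not tested. In RNA of a whole wall, fewer cells of a type and less RNA per cell cannot be told apart.

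**Figure D3:**
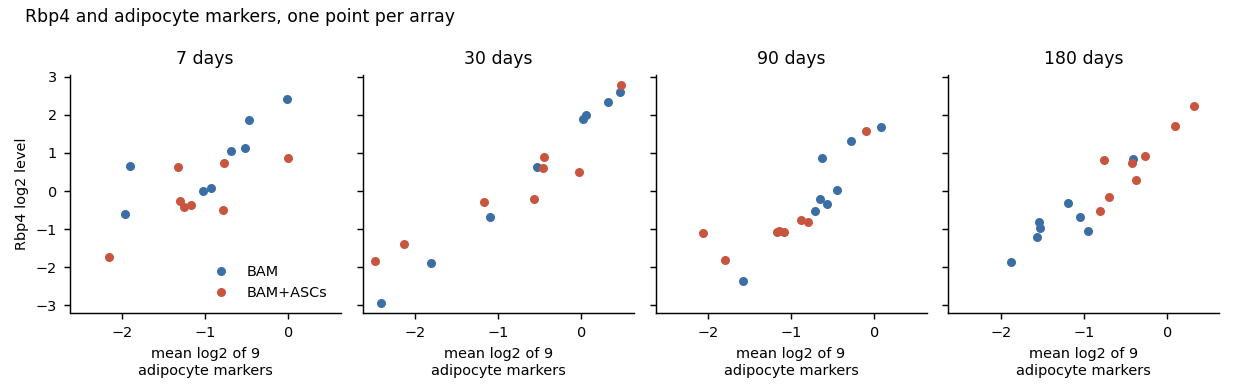
Rbp4 log2 level (vertical axis) against the mean log2 level of 9 adipocyte markers (horizontal axis), 1 point per array, for each day and graft. At 180 days the adipocyte means run from -0.81 to 0.32 in BAM+ASCs and from -1.88 to -0.41 in BAM, and the points of both grafts overlap.

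Stra6, the membrane receptor through which retinol bound to Rbp4 enters cells, was the gene called at 90 days. In BAM its level there ran from -3.79 to -1.73 with a median of -3.29, and in BAM+ASCs from -5.21 to -4.18 with a median of -4.73. The groups did not overlap, as was so for 3.16% of all gene probes at this day. The probe was well above background on 3 of 8 BAM arrays and on none of the 8 BAM+ASCs arrays. The BAM+ASCs level is therefore only an upper limit, and so are the values of the other BAM arrays. The fold is thus neither a lower nor an upper limit. On this scale Stra6 was 3.22-fold higher in BAM (log2 difference -1.69 ± 0.29, adjusted p = 4.99e-06). It was called without any 1 array. With background corrected by normexp the difference shrank to -0.63, so the size of the difference depends on the background correction, and where probes not well above background throughout at least 1 of the groups were left out Stra6 was not tested. The local background of the BAM arrays at 90 days was 345.3 ± 14.3 intensity units and that of the BAM+ASCs arrays 108.2 ± 7.0, and its part in this difference was not tested. In the same comparison 3 of 10 housekeeping genes (Rplp0, Ppia and Actb) were called, against 12.4% of all gene probes. However, Rplp0 and Ppia were saturated on 8 of 8 arrays of each graft and Actb on 8 of 8 BAM and 6 of 8 BAM+ASCs arrays. No fold is therefore given for them.

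At 180 days the sign of the Stra6 difference was the opposite. The level ran from -5.55 to -3.82 with a median of -4.36 in BAM and from -4.84 to -1.85 with a median of -3.75 in BAM+ASCs. In BAM+ASCs replicates 2 and 5 stood highest (-1.92 and -1.85), 4 of 8 arrays lay above every BAM array, and the difference of 0.98 was not called (adjusted p = 0.0266), although it was called when BAM+ASCs replicate 7 or 8 was left out. From 90 to 180 days Stra6 fell in BAM (log2 -1.45 ± 0.29, adjusted p = 6.16e-05, 1 of 9 genes called against 9.36% of all probes), the groups not overlapping, as was so for 3.78% of all probes. The probe was well above background on 3 of 8 BAM arrays at 90 days and 1 of 8 at 180 days, the local background of the BAM arrays at 180 days was 155.7 ± 9.97, the difference was -0.60 with normexp, and the gene was not tested where dim probes were left out. In BAM+ASCs Stra6 was higher at 180 than at 90 days (log2 1.21 ± 0.29, adjusted p = 0.00185, 1 of 9 genes against 4.13% of all probes), with 4 of 8 arrays well above background at 180 days and none at 90 days. There the difference was 0.57 with normexp and was not called. The call in BAM+ASCs was lost without BAM+ASCs replicate 2 of 180 days (adjusted p = 0.012). These comparisons share their 90 day arrays with the comparison of grafts. At 7 and 30 days the medians of all 4 groups lay between -3.58 and -3.22 and the grafts differed by -0.21 and -0.01. The test of a graft difference that changed with the day gave an adjusted p of 7.07e-06 for Stra6.

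Crabp2, which carries retinoic acid from the cytoplasm to its nuclear receptors, was 2.45-fold higher in BAM+ASCs at 7 days (log2 1.29 ± 0.36, adjusted p = 0.00691). Its level ran from -0.28 to 3.24 with a median of 1.81 in BAM and from 2.49 to 3.65 with a median of 3.11 in BAM+ASCs. The groups overlapped, 3 of 8 BAM+ASCs arrays lying above every BAM array. The call was kept in 7 of the 16 fits that left out 1 array and lost in 9 (without BAM+ASCs replicate 1, 4, 5, 6 or 7 or BAM replicate 1, 3, 6 or 7), with an adjusted p of up to 0.0423. The difference was 0.97 (adjusted p = 0.0739) at 30 days, when 6 of 8 BAM+ASCs arrays lay above every BAM array, and 1.12 (adjusted p = 0.0133) at 90 days. At 90 days 1 BAM array, replicate 5, stood far below the others with a Crabp2 level of 0.17, and its mean urothelium marker level of 0.16 was the lowest of its group too. Without BAM replicate 4 or 7 of that day Crabp2 was called. At 180 days the difference was -0.22 (95% interval -0.93 to 0.49).

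Rara, the retinoic acid receptor alpha, was the only one of the 9 genes called lower in BAM+ASCs at 7 days. Its level ran from -0.20 to 0.70 with a median of 0.37 in BAM and from -0.53 to 0.11 with a median of -0.34 in BAM+ASCs. In BAM+ASCs 7 of 8 arrays lay below every BAM array, replicate 3 standing above the rest. The difference was -0.60 ± 0.13 (1.52-fold lower, adjusted p = 0.000484). The fold was just past the limit, and the call was lost by the fold alone with quantile normalization, with the percentile taken over detected probes and with normexp, where the difference was as small as -0.50 with an adjusted p of up to 0.00746. It was lost in the same way without BAM+ASCs replicate 1 or 4 or BAM replicate 3, 6 or 7.

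Rara also fell from 7 to 30 days. In BAM the level at 30 days ran from -0.99 to -0.58 with a median of -0.80, below every array of 7 days, as was so in either direction for 6.11% of all probes. The fall was 2.09-fold (log2 -1.06 ± 0.13, adjusted p = 5.38e-09) and was called under each of the 12 alternative settings and without any 1 array. In BAM+ASCs the level at 30 days ran from -1.23 to -0.71 with a median of -0.89, again below every array of 7 days (7.91% of all probes did not overlap). The difference of -0.57 had an adjusted p of 0.000811, with a fold of 1.48 that stayed under the limit. At 30, 90 and 180 days the grafts differed by -0.11, 0.08 and 0.03, and the test of a graft difference that changed with the day gave an adjusted p of 0.00832.

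Rarb, the retinoic acid receptor beta and itself a gene that retinoic acid induces, was called in none of the 8 comparisons. At 7 days its level ran from -4.09 to -3.47 with a median of -3.85 in BAM and from -4.15 to -2.85 with a median of -3.26 in BAM+ASCs. Although 5 of 8 BAM+ASCs arrays lay above every BAM array, 1 lay below them all, and the difference was 0.43 (95% interval -0.04 to 0.90, adjusted p = 0.221). At 30, 90 and 180 days the differences were 0.15, 0.41 and -0.20 (adjusted p = 0.716, 0.152 and 0.881), and at 90 days the probe was well above background on 7 of 8 BAM+ASCs and 2 of 8 BAM arrays.

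Rar and Rxr dimers bind direct repeats of a short half-site. A search of the RefSeq promoters (assembly GRCr8, 250 bases before to 50 after each start, both strands) looked for the half-site AGGTCA, its variant GGGTCA, a variant written AGTTCA or another written GGTTCA, and for 2 of them in the same orientation with 5 bases between (DR5), the spacing best known from retinoic acid response genes. Such a DR5 lay in 128 of 33469 promoters (0.382%). A promoter entry was matched for 8 of the 9 genes, all but Rdh10. Of these, Rarb held a DR5, and among all 63 retinoid genes searched the other was Cyp26a1, which encodes the enzyme that breaks down retinoic acid. A half-site alone lay in 44.4% of all promoters and in 4 of the 8, so its presence separated nothing, and repeats spaced by 1 or 2 bases lay in none of the 63. Both windows are shown with the DR5 in capitals, on the + strand as transcribed, because they were the retinoid genes in which this repeat was found.
Rarb (GRCr8, chr15:11336142-11336441): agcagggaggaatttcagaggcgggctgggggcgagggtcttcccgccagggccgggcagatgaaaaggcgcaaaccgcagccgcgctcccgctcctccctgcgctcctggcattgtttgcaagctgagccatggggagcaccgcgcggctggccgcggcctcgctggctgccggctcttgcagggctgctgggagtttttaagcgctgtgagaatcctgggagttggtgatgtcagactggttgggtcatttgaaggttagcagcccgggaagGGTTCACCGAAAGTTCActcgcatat
Cyp26a1 (GRCr8, chr1:244883572-244883871): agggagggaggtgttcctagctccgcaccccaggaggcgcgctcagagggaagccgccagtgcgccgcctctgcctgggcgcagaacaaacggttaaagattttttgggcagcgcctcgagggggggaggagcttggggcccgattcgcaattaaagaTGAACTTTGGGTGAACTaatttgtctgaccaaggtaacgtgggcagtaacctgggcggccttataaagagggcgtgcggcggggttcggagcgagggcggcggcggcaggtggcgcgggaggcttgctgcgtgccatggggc
The repeat of Rarb lay just after the start, and that of Cyp26a1 before the start in the opposite orientation. At 7 days the Rarb level differed by 0.43 between the grafts without passing the test, whereas Cyp26a1 was 2.33-fold lower in BAM+ASCs (log2 -1.22 ± 0.27, adjusted p = 0.000835). Cyp26a1 was well above background on 5 of 8 BAM+ASCs and 8 of 8 BAM arrays, and 7 of 8 BAM+ASCs arrays lay below every BAM array. The Cyp26a1 difference was -0.60 with quantile normalization and -0.87 in the series matrix, in neither case called, and -0.63 with normexp. In the series matrix the columns of BAM+ASCs replicates 2, 3 and 4 at 7 days did not equal the scanner values.

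Markers of the urothelium moved with the genes called at 7 days. At that day 12 of 15 urothelium markers were higher in BAM+ASCs (median log2 difference 2.05), among them the uroplakins Upk1a and Upk1b (by 2.36 and 1.79). Of all gene probes 7.71% were called at 7 days, 2.11% being higher and 5.6% lower. The mean log2 level of the 15 markers ran from -2.58 to 2.16 in BAM and from 1.35 to 2.73 in BAM+ASCs, and every marker was well above background on at least 1 array of each group. The 4 of 16 arrays with the lowest mean, all of BAM, held the 4 lowest levels of Crabp2 (-0.28 to 1.37, against 2.26 to 3.65 on the other arrays), the 4 lowest of Aldh1a1 (-5.60 to -3.60, against -2.78 to -0.21), the 4 lowest of Aldh1a2 (-4.85 to -3.57, against -3.11 to -1.001) and the 4 highest of Rara (0.38 to 0.70, against -0.53 to 0.36). The BAM replicates 3, 6 and 7 whose removal ended several of the calls were among these arrays. The calls of Crabp2, Aldh1a1, Aldh1a2 and Rara were each also lost without BAM+ASCs replicate 1, which was not among them. Of the other cell types, 2 of 7 neutrophil markers (Csf3r and Camp) and 2 of 8 endothelium markers (Kdr and Vwf) were lower in BAM+ASCs. Higher were 1 of 5 mesothelium (Gpm6a, by 1.85), 1 of 9 adipocyte (Pparg, by 0.93) and 1 of 8 nerve and Schwann cell markers (Uchl1, by 1.81). The median log2 differences of the mesothelium, adipocyte and nerve lists were -0.12, -0.36 and -0.14, beside -0.16 over all gene probes. Gpm6a was well above background on 4 of 8 BAM+ASCs arrays and on no BAM array. Of the fibroblast, smooth muscle and macrophage markers 0 of 10, 0 of 9 and 0 of 10 were called. From 7 to 30 days in BAM, where Aldh1a1 rose and Rara fell, 8.63% of all gene probes were called. In that comparison 7 of 15 urothelium and 3 of 9 smooth muscle markers were higher. Lower were 6 of 7 neutrophil, 6 of 8 endothelium and 4 of 10 fibroblast markers. Of 5 mesothelium markers 1 was higher and 2 were lower there, of 8 nerve and Schwann cell markers 1 was higher and 1 lower, of 9 adipocyte markers 1 was higher, and 0 of 10 macrophage markers were called. The part of these cell type markers in the retinoid values was not tested.

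**Figure D4:**
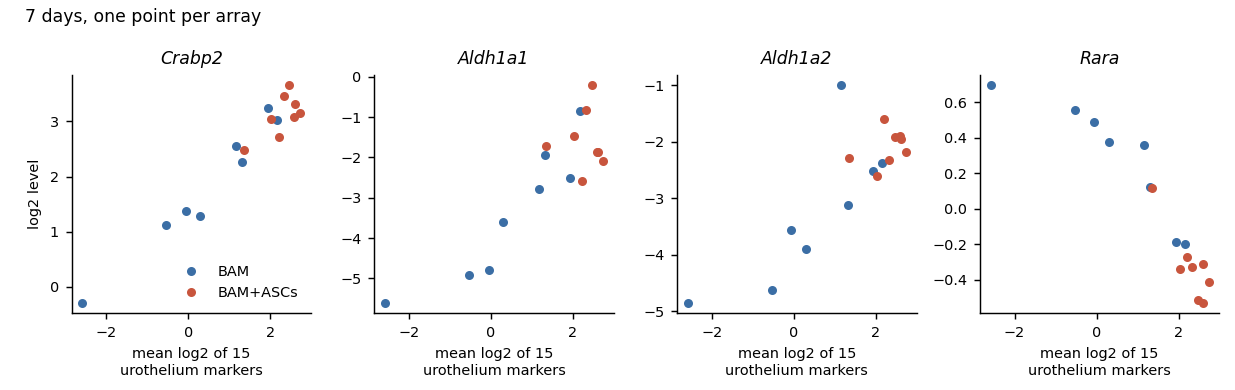
Log2 level of Crabp2, Aldh1a1, Aldh1a2 and Rara (vertical axes) against the mean log2 level of 15 urothelium markers (horizontal axis) on the 16 arrays of 7 days, 1 point per array. The 4 BAM arrays with the lowest urothelium means hold the 4 lowest Crabp2, Aldh1a1 and Aldh1a2 levels and the 4 highest Rara levels.

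Likeness between genes was described by Pearson r over the 64 arrays after each group's mean had been subtracted, against 5231 named genes well above background on all arrays, for the 4 retinoid genes that met the same condition. These points share libraries and slides. The genes most like Crabp2 were Krtcap3 (0.967), Tmem79 (0.958) and Gstm1 (0.958), and its r with the urothelium mean was 0.917. Those most like Rbp4 were Acsl1 (0.817), S100b (0.713) and Ces1d (0.658). Those most like Aldh1a1 were Psapl1 (0.677), Tns4 (0.653) and Ptprr (0.646), with 0.579 for the urothelium mean. Those most like Rara were Agtr1a (0.674), Tnfrsf1a (0.633) and Tbkbp1 (0.618), with -0.610 for the urothelium mean.

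When the 8 groups were ordered by mean level, most neighbours could not be separated. Of the 7 neighbouring pairs of each gene, the difference exceeded the larger SD for 2 pairs of Aldh1a1 (BAM+ASCs at 30 days above BAM+ASCs at 7 days, and the latter above BAM at 7 days), 1 pair of Rara and 1 of Stra6 (both of them across the scanning days) and no pair of the other 6 genes. The ranges of the arrays overlapped in every neighbouring pair. The top of the order was BAM+ASCs at 90 days for Aldh1a1 (1.06 ± 0.72, SD, n = 8), BAM at 180 days for Crabp2 (4.05 ± 0.31) and BAM at 7 days for Rara (0.28 ± 0.33). The bottom was BAM at 7 days for Aldh1a1 (-3.37 ± 1.65) and Crabp2 (1.82 ± 1.17) and BAM+ASCs at 30 days for Rara (-0.89 ± 0.17). Levels of 7 and 30 days are set beside those of 90 and 180 days only as values, since the scanning days differed.

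Of 79 other retinoid genes listed by role, 60 were named on the array. At 7 days 1 of them was called higher and 1 lower in BAM+ASCs. The numbers were 1 higher for 30 days, 4 higher with 2 lower for 90 days, and 3 higher for 180 days. Of all gene probes 7.71, 1.67, 12.4 and 2.42% were called at 7, 30, 90 and 180 days. Among the carriers and storage genes, Ttr (transthyretin), which binds Rbp4 in plasma, rose in BAM from a mean of -6.37 ± 1.25 at 7 days to -1.33 ± 0.69 at 30 days (log2 5.05 ± 0.65, adjusted p = 2.72e-08), and by 2.46 with normexp. Its probe was well above background on 5 of 8 BAM arrays at 7 days. Ttr was also called higher at 30 than at 7 days in BAM+ASCs (log2 2.54 ± 0.65, adjusted p = 0.00324). The scavenger receptor Scarb1 was higher in BAM+ASCs at 180 days (log2 0.67 ± 0.17, adjusted p = 0.00801), and this call was lost in 8 of 16 fits without 1 array (BAM+ASCs replicate 1, 2, 3 or 6 or BAM replicate 1, 3, 4 or 8). Its second probe differed by 0.40 (adjusted p = 0.245).

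Among the dehydrogenases and reductases, Dhrs3, which turns retinal back into retinol, was higher in BAM+ASCs at 7 days (log2 0.63 ± 0.16, adjusted p = 0.00249), and it rose from 7 to 30 days in BAM by 0.79 (adjusted p = 0.000103). The call at 7 days was lost without BAM+ASCs replicate 6 or BAM replicate 7, the difference falling to as little as 0.53. Dhrs4 was higher at 30 days (log2 0.59 ± 0.09, adjusted p = 5.03e-05), all 8 BAM+ASCs arrays lying above the BAM arrays, as was so in either direction for 1.93% of all probes. Its fold was just past the limit, and the call was lost with quantile normalization and without BAM+ASCs replicate 2, 3, 4 or 5 or BAM replicate 2 (log2 as low as 0.56). Rdh8 was higher at 180 days (log2 0.80 ± 0.15, adjusted p = 0.000181), though not called with normexp (0.45), and Rdh12 was lower at 90 days (log2 -0.92 ± 0.27, adjusted p = 0.00693) with 3 of 8 arrays of each graft well above background. The Rdh12 call was lost in 7 of 16 fits without 1 array (BAM+ASCs replicate 1, 3, 4, 6 or 7 or BAM replicate 4 or 8), with quantile normalization (-0.77) and with normexp (-0.40). From 7 to 30 days in BAM+ASCs Dhrs9 was higher at 30 days by 1.77 on the log2 scale (adjusted p = 0.00204), the probe being well above background on 3 arrays at 30 days and none at 7 days, and this call was lost without BAM+ASCs replicate 1 of 30 days, with quantile normalization (0.66), with normexp (0.38) and in the series matrix (0.69). That series matrix value used the columns of BAM+ASCs replicates 2, 3 and 4 at 7 days, which did not equal the scanner values. Of the carriers of retinoic acid and the enzymes that break it down, Cyp26a1 was called at 7 days as given above and Fabp5, which also carries retinoic acid, at 90 days. The Fabp5 probe was saturated on 5 of 8 BAM+ASCs and 6 of 8 BAM arrays of that day, so no fold is given for it.

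Among the receptors and coregulators no gene was called at 7 or 30 days between the grafts. At 90 days Ppard, a nuclear receptor to which Fabp5 can deliver retinoic acid, was higher in BAM+ASCs by 1.02 (adjusted p = 0.00114; 0.61 with normexp), its brightest probe being above background on 6 arrays there and on no BAM array. Its second probe differed by 0.15 (adjusted p = 0.6). Nrip1, a corepressor, was higher by 0.62 (adjusted p = 0.000308), a call lost without BAM+ASCs replicate 3 or BAM replicate 8 (down to 0.52), and its second probe differed by 0.04 (adjusted p = 0.842). Nrip1 was also not called with normexp (0.51) or without the least agreeing array of each group (0.45). At 180 days the coactivator Ncoa2 was higher by 0.82 (adjusted p = 0.000398), though not called with quantile normalization (0.69). From 7 to 30 days the receptor Rxrg rose in BAM (log2 1.58 ± 0.28, adjusted p = 1.64e-05, 0.70 with normexp), while the coactivator Crebbp rose in BAM+ASCs (log2 1.98 ± 0.32, adjusted p = 6.28e-06, 0.77 with normexp). Of 22 retinoic acid response genes, 1 was higher (Dhrs3) and 1 was lower (Cyp26a1) in BAM+ASCs at 7 days, and 2 were higher at 90 days (Nrip1 and the homeobox gene Hoxb4, by 1.00 ± 0.17 with an adjusted p of 3.78e-06). The shares of all gene probes called at these days are those given above. None of the 22 was called at 30 or 180 days. The response gene Nr2f2, an orphan nuclear receptor, rose from 7 to 30 days in BAM+ASCs by 0.84 (adjusted p = 5.6e-08). The retinol binding protein gene Rbp3 passed the test at 90 days without being above background on any array of either graft, and no fold is given for it.

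**Figure D5:**
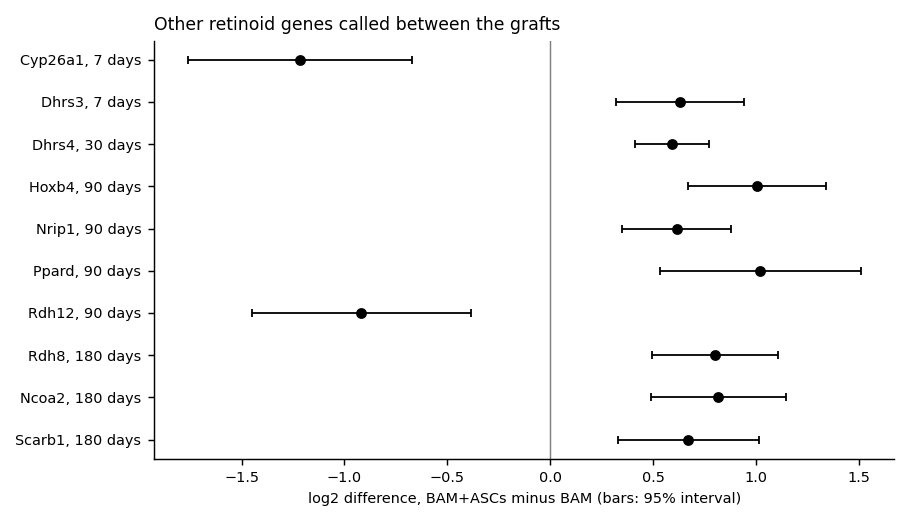
Log2 difference BAM+ASCs minus BAM with its 95% interval (horizontal axis) for the other retinoid genes called between the grafts, by day, leaving out Rbp3, which was not above background, and Fabp5, which was saturated on most arrays. Cyp26a1 and Rdh12 lie left of 0 and the others to the right.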

How the data were processed

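Total RNA of the reconstructed wall was hybridised by the authors to 64 one-colour Agilent rat arrays, 8 for each graft and day. Signals were read from the scanned images with the software Agilent Feature Extraction 12.0.1.1. The deposited scanner files hold the processed signal, a linear intensity from which background had been subtracted. The authors also deposited a series matrix of linear values. On the log2 scale its columns equalled the scanner values within 0.01 for 61 of 64 arrays. The columns of BAM+ASCs replicates 2, 3 and 4 at 7 days differed from them by a median log2 of about -3.3. The column of BAM replicate 1 at 180 days had 24873 empty gene spots. The genes and lists were chosen with earlier results of these data known, and 1 listed gene is not reported here.

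Processed signals were put on the log2 scale and centred on the 75th percentile of the gene spots of each array, with spots of a probe averaged and outlier spots left out (115 probe values with no other spot were kept). Probes were named through RefSeq accessions, 18758 of 22372 RefSeq probes matching a gene. limma 3.58.1 (R 4.3.3) was fitted to the 8 group means of all 64 arrays, and p-values were adjusted over 30367 probes (Benjamini-Hochberg). The methods of the study used a two-way analysis of variance, which was an alternative here. A gene with several probes was represented by the brightest. The other retinoid genes named were those called, at most 8 for each day between grafts and 4 between days, with the smallest adjusted p, and 3 genes were named for likeness. The number of arrays limits the precision, and p-values measure the spread between rats on the same slide. Alternatives were quantile normalization, the percentile over probes detected on all arrays, normexp (offset 50), the series matrix, outlier spots kept, dim probes left out, a replicate block, each comparison fitted alone, other thresholds, and leaving out arrays. The fitting code was tested on simulated data. For 32 pairs of same-numbered BAM and BAM+ASCs rats at the same day, deviations from the group means correlated between -0.275 and 0.328.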

Additional observations from a re-analysis of the deposited data

Results flagged for a closer look

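Among the 72 combinations of gene and group, 2 held an array far from the other 7, and chance alone marks about 1 in 20 groups. Rbp4 in BAM+ASCs at 90 days stood at 1.58 on replicate 8, the nearest other array being at -0.77, a gap of 0.692 of the range of the group. That array also had the highest mean adipocyte marker level of its group (-0.10). Rara in BAM+ASCs at 7 days stood at 0.11 on replicate 3, the nearest other array being at -0.27, a gap of 0.605 of the range, and that array had the lowest mean urothelium marker level of its group (1.35).

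The graft difference changed with the day for 3 of the 9 genes by the limma F-test over the 4 days, with an adjusted p of 7.07e-06 for Stra6, 0.00758 for Aldh1a3 and 0.00832 for Rara. For Stra6 the log2 differences BAM+ASCs minus BAM at 7, 30, 90 and 180 days were -0.21, -0.01, -1.69 and 0.98, for Aldh1a3 0.97, 1.37, -1.02 and 0.44, and for Rara -0.60, -0.11, 0.08 and 0.03. The late Stra6 and Aldh1a3 values came from arrays on which these probes were mostly not well above background. The days also differ in slide and, between 30 and 90 days, in the day of scanning, which cannot be told apart from the day of the graft.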

How the results depend on the processing

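Of the results given, 1040 of 1134 values under another setting and 1463 of 1584 without 1 array kept their direction and their side of the threshold. Part of this was fixed in advance, since settings such as the replicate block and the two-way analysis of variance leave the log2 differences unchanged. Results that were not called had only to stay so. The count of 4 genes called between grafts at 7 days depended most on the processing. It was 1 with normexp (Crabp2), 1 with each comparison fitted alone and 1 without the least agreeing array of each group (Rara in both, the latter chosen after seeing the data), and 0 to 4 without 1 array, falling to 0 without BAM+ASCs replicate 1 or BAM replicate 3, 6 or 7. At an unadjusted p below 0.01 the counts between grafts of 30, 90 and 180 days were 2, 2 and 1, with 3 in BAM and 1 in BAM+ASCs from 7 to 30 days and 2 from 90 to 180 days in BAM. Without 1 array the counts between grafts were 0 for 30 days, 1 to 2 for 90 days and 0 to 1 for 180 days, with 2 to 3 in BAM and 0 to 2 in BAM+ASCs from 7 to 30 days, and 1 to 2 in BAM and 0 to 1 in BAM+ASCs from 90 to 180 days. At 90 days the count was 0 with dim probes left out. From 7 to 30 days in BAM+ASCs it was 1 (Rara) with quantile normalization and with the percentile over detected probes. From 90 to 180 days in BAM+ASCs it was 0 with quantile normalization, with normexp, with dim probes left out, with each comparison fitted alone and without the least agreeing arrays. The genes whose graft difference changed with the day numbered 1 (Stra6) in place of 3 with quantile normalization. The cause of these changes was not tested, except that Stra6 was not among the probes tested once dim probes were left out.

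Several log2 differences that were not called changed sign. With quantile normalization these were Rarb at 30 days (-0.0486), Rdh10 at 90 days (0.26) and Rara at 180 days (-0.019) between grafts, and from 90 to 180 days Rdh10 in BAM (0.37) and Aldh1a3 in BAM+ASCs (-0.30). With the percentile over detected probes they were Stra6 at 30 days (0.038) and Rara at 180 days (-0.0284), and with normexp Rdh10 at 7 days (-0.19) and Aldh1a3 from 7 to 30 days in BAM (-0.0855). Rbp3 at 90 days, called but not above background on any array of that day, went from -1.02 to 0.15 with normexp. Without the least agreeing arrays they were Stra6 at 30 days (0.0475), Rdh10 from 7 to 30 days in BAM (0.096) and Aldh1a1 from 90 to 180 days in BAM (-0.0002). Without 1 array the graft differences ranged from -0.0776 to 0.20 for Rdh10 at 7 days, from -0.0948 to 0.0758 for Stra6 and -0.50 to 0.0181 for Aldh1a1 at 30 days, from -0.0292 to 0.52 for Aldh1a1 and -0.0028 to 0.19 for Rara at 90 days, and from -0.23 to 0.0645 for Aldh1a1 and -0.0199 to 0.10 for Rara at 180 days. Between 7 and 30 days they ranged from -0.12 to 0.16 for Rdh10 and -0.63 to 0.16 for Rbp4 in BAM and from -0.11 to 0.54 for Rbp4 in BAM+ASCs, and from 90 to 180 days in BAM from -0.16 to 0.38 for Aldh1a1 and -0.0512 to 0.35 for Rarb.

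The deviations of same-numbered rats correlated above 0.1 in 9 of 32 pairs. Rats of different numbers were not correlated for reference, so whether the numbers pair the rats cannot be told from these values. With the replicate number as a block the counts between grafts of 7, 30, 90 and 180 days were 4, 0, 1 and 0, and the block changed no count of genes called. The mean of the probes of a gene gave no other value, since each of the 9 genes had 1 probe. Signal over background limits the late values of Aldh1a3, Rarb, Rdh10 and Stra6.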
